A study of Mus musculus with 6 samples.

Results

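The levels of 9 genes known as markers of hippocampal CA1 pyramidal neurons were read from the RNA-Seq values of 6 mouse hippocampi: *Fibcd1*, *Mpped1*, *Wfs1*, *Pou3f1*, *Gpr161*, *Man1a*, *Ndst4*, *Nov*, and *Lefty1*. They were chosen by name from a list of CA1 markers, with earlier results of these data known, and are 9 of the 14477 genes in the expression table. Their counts beside the shares of all genes therefore describe this set and are no test of it. By symbol 8 were found, and *Nov* was found under its current symbol *Ccn3*, for which RefSeq lists *Nov* as a synonym. Replicates 2, 3, and 6 are Phf21bΔ4/Δ4 mice and replicates 5, 7, and 8 are Phf21b+/+ mice, with 3 hippocampal samples of each genotype taken at baseline with no treatment. Phf21bΔ4/Δ4 mice carry a CRISPR/Cas9 deletion in exon 4 of *Phf21b*, which encodes a PHD finger reader of histone marks, in every cell of the body. The study reported that the allele lowers *Phf21b* expression without abolishing it. Per its methods the mice were kept on a C57BL/6J background, and young adult littermates of both sexes were used in its experiments. The labels give neither the sex of a mouse nor the borders of the dissection, and they do not say how much of the tissue around the hippocampus was kept.

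CA1 is the output field of the hippocampal loop. Its pyramidal neurons receive CA3 axons through the Schaffer collaterals and project to the subiculum, the cortex, and other targets, and they are known for spatial and social memory. Genes that mark CA1 do not belong to a single pathway. They encode surface receptors, secreted proteins, enzymes of the endoplasmic reticulum and Golgi apparatus, and a transcription factor, and several are also expressed in layers of the cerebral cortex. Many of them are graded along the length of CA1 or differ between its deep and superficial cells.

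The values are log2 CPM, that is, reads scaled to a common effective library size and given on a log2 scale. Whole reads could be worked out from them, and a mouse had 20495605 to 24881257 of them over all genes in the table. No CA1 marker had fewer than 88 reads in any mouse, so each was far above a floor of 3 reads. CPM is given below for each mouse, and limma's moderated test over all 14477 genes compared Phf21bΔ4/Δ4 with Phf21b+/+ mice. A gene was called at an FDR (the Benjamini-Hochberg adjusted p) under 0.1 with a fold change above 1.3, and an exact permutation test of 3 against 3 mice cannot give a p below 0.1. *Phf21b* itself had 2.15, 3.57, and 3.87 CPM in Phf21bΔ4/Δ4 replicates 2, 3, and 6 and 6.50, 5.23, and 6.47 CPM in Phf21b+/+ replicates 5, 7, and 8. The genotypes did not overlap, the log2 change was -0.96 (standard error 0.26), and the FDR was 0.14 by limma. It was called in 1 of the 6 fits that left out a mouse, the one without Phf21bΔ4/Δ4 replicate 6. Nothing in the labels ties mice to litters or days, so p-values measure the spread between these mice alone.

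Of the 9 CA1 markers, 3 were called, all higher in Phf21bΔ4/Δ4 mice: *Gpr161*, *Fibcd1*, and *Mpped1*. None was called lower. Over all genes, 0.553% were called higher. All 3 Phf21bΔ4/Δ4 mice lay above all 3 Phf21b+/+ mice in 4 of the 9 markers, these 3 and *Ccn3*, as they did in 15.0% of all genes. The mean log2 CPM was higher in Phf21bΔ4/Δ4 mice in 9 of 9 markers, with a median log2 change of 1.22, while over all genes 47.6% had a positive change and the median was -0.02. The median of the markers was 0.93 without Phf21bΔ4/Δ4 replicate 3, 0.74 without replicate 6, and 0.40 with mice weighted by arrayWeights. These weights were highest for Phf21b+/+ replicate 8 (4.63) and Phf21bΔ4/Δ4 replicate 2 (2.04) and lowest for Phf21bΔ4/Δ4 replicate 6 (0.343). With them 5 markers were called higher, *Gpr161*, *Fibcd1*, *Mpped1*, *Ccn3*, and *Man1a*, and 1483 genes of the whole table. The call depended on single mice. When a single mouse was removed from the fit, the number of markers called ranged from 0 (without Phf21b+/+ replicate 8) to 4 (without Phf21bΔ4/Δ4 replicate 6). Over all 14477 genes, 0 and 1485 were called higher in these 2 fits, so the number called in the whole table moved as well. It was 2 markers without Phf21bΔ4/Δ4 replicate 2 and 1 without Phf21bΔ4/Δ4 replicate 3 or without Phf21b+/+ replicate 5 or 7. In these 4 fits 3, 11, 4, and 2 genes of the whole table were called higher, in that order.

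**Figure D1:**
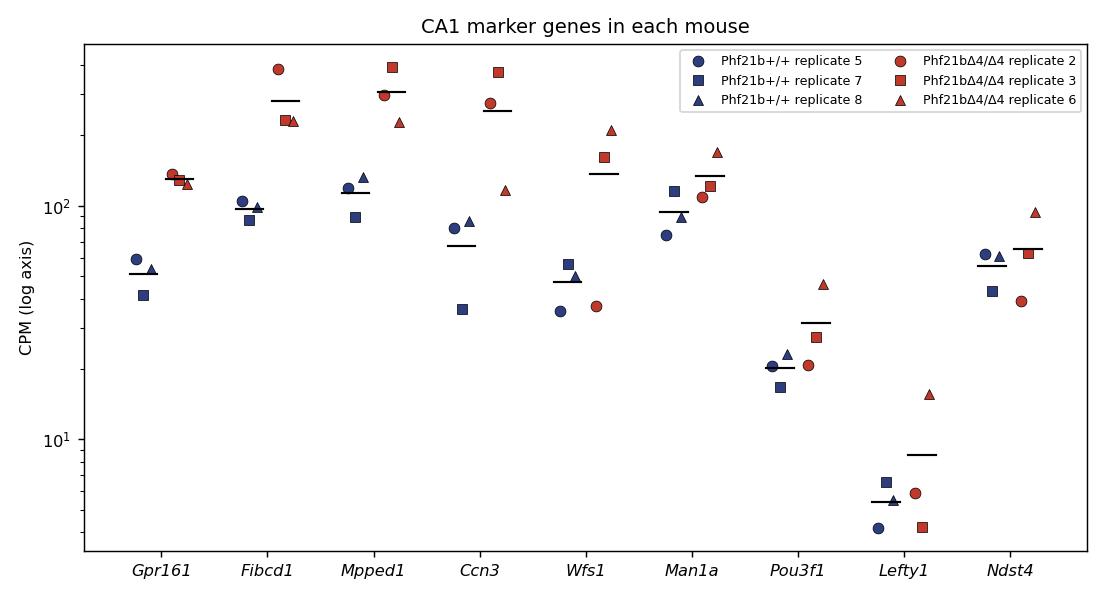
CPM of the 9 CA1 markers (log axis) in each mouse, with Phf21b+/+ mice in blue, Phf21bΔ4/Δ4 mice in red, a symbol for each replicate, and a black line at the mean of each genotype. In *Gpr161*, *Fibcd1*, *Mpped1*, and *Ccn3* every red point lies above every blue point, whereas in *Wfs1* Phf21bΔ4/Δ4 replicate 2 lies among the Phf21b+/+ mice at 37.2 CPM.

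**Figure D2:**
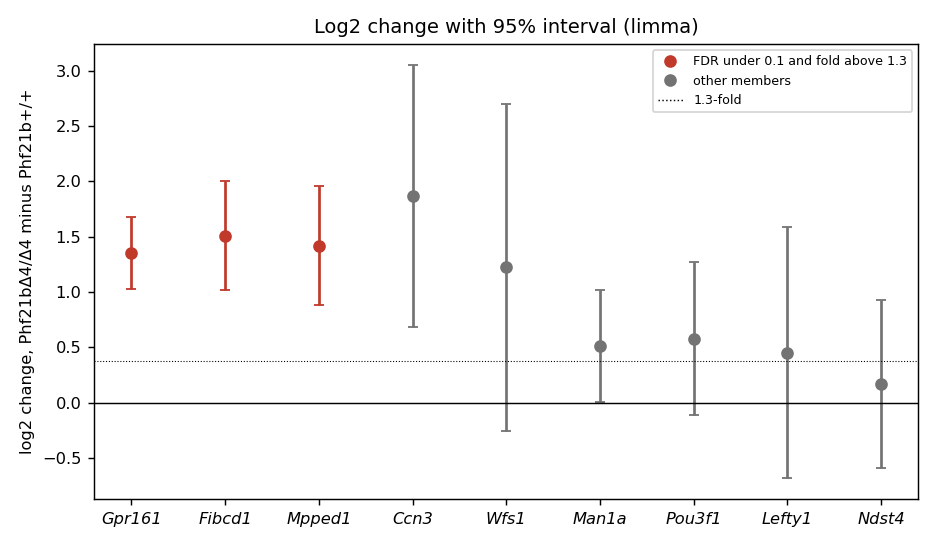
Log2 change (Phf21bΔ4/Δ4 minus Phf21b+/+) of each CA1 marker with its 95% interval from limma, with called genes in red, other members in grey, and a dotted line at a 1.3-fold change. The interval is narrowest for *Gpr161* (1.03 to 1.68) and widest for *Wfs1* (-0.26 to 2.7).

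Among the surface receptors, *Gpr161* encodes an orphan G protein–coupled receptor of the primary cilium that restrains hedgehog signalling. Its coordinates in GRCm38 are chromosome 1, 165295789 to 165326745, plus strand, and the positions of the other genes are of the same build. *Gpr161* had 137, 129, and 124 CPM in Phf21bΔ4/Δ4 replicates 2, 3, and 6 and 59.0, 41.3, and 53.4 CPM in Phf21b+/+ replicates 5, 7, and 8. The 3 Phf21bΔ4/Δ4 mice lay close together, with a highest level 1.11 times the lowest, and the lowest of them was 2.10 times the highest Phf21b+/+ mouse. The log2 change was 1.36 (standard error 0.14, FDR 0.029 by limma), a 2.56-fold rise with a 95% interval of 2.04-fold to 3.21-fold. With single mice left out, the FDR of *Gpr161* by limma was 0.12 without Phf21bΔ4/Δ4 replicate 2 and 0.15 without Phf21b+/+ replicate 8, and the call held in the other 4 fits.

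*Fibcd1* encodes a transmembrane receptor with a fibrinogen-like domain that binds acetylated groups such as those of chitin. It lies on chromosome 2 from 31813290 to 31846005 on the minus strand. *Fibcd1* had 384, 232, and 231 CPM in Phf21bΔ4/Δ4 replicates 2, 3, and 6 and 105, 86.8, and 98.5 CPM in Phf21b+/+ replicates 5, 7, and 8. Phf21bΔ4/Δ4 replicate 2 was the highest of the 6 mice, and the other 2 were alike and still above every Phf21b+/+ mouse. Its log2 change was 1.51 (standard error 0.21, FDR 0.062 by limma), and the lowest Phf21bΔ4/Δ4 mouse was 2.20 times the highest Phf21b+/+ mouse. *Fibcd1* was called in 2 of the 6 fits that left out a mouse, those without Phf21bΔ4/Δ4 replicate 2 or 6, and in the other 4 the log2 change lay between 1.43 and 1.63 with an FDR of 0.24 or less by limma.

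The bases upstream of these 2 genes are shown because they are the called markers whose RefSeq start lies within 50 bases of the GENCODE gene start. Each line gives the 250 bases before the RefSeq start on GRCm38.p6, 5′ to 3′ on the strand of the gene, at chr1:165295516-165295765 for *Gpr161* and chr2:31846006-31846255 for *Fibcd1*. Capitals mark TGACG, the core of the cAMP response element that CREB binds, here on the opposite strand.
Gpr161: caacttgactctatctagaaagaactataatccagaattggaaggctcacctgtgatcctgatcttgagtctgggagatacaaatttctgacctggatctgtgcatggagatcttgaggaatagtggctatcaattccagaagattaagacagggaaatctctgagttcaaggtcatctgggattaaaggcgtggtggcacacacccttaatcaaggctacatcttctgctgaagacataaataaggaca
Fibcd1: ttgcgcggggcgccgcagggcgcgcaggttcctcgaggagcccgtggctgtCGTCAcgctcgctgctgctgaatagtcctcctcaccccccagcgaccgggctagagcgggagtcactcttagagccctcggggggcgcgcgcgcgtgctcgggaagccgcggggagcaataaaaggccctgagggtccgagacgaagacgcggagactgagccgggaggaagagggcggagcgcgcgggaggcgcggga
The 2 stretches differ in base composition, with 42.4% G and C for *Gpr161* and 71.6% for *Fibcd1*. RefSeq windows of 250 bases before to 50 after the start were given for 5 of the 9 markers (*Gpr161*, *Fibcd1*, *Mpped1*, *Wfs1*, and *Man1a*), 7 windows in all. TGACG on either strand was in 2 of these 7, those of *Fibcd1* and *Man1a*, and in 20.8% of all 32851 windows. The full element TGACGTCA, which contains TGACG, was in 0 of the 7 and in 1.79% of all windows, and the octamer ATGCAAAT that POU factors bind was in 0 of the 7 and in 1.74%. These matches describe letters in a window, and no binding was measured.

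*Mpped1* encodes a protein with a metallophosphoesterase domain that is expressed mainly in the brain. It lies on chromosome 15 from 83779467 to 83858494 on the plus strand. *Mpped1* had 299, 393, and 229 CPM in Phf21bΔ4/Δ4 replicates 2, 3, and 6 and 119, 89.4, and 132 CPM in Phf21b+/+ replicates 5, 7, and 8. All 3 Phf21bΔ4/Δ4 mice were above the Phf21b+/+ mice, and the lowest was 1.73 times the highest of these. Its log2 change was 1.42 (standard error 0.23, FDR 0.072 by limma). *Mpped1* was called in 1 of the 6 fits that left out a mouse, the one without Phf21bΔ4/Δ4 replicate 6, and the FDR reached 0.24 in the others by limma. *Mpped1* is on the same chromosome as the edited gene, 927 kb from it. Of the 24 listed genes within 1000 kb of *Phf21b*, 2 were called, *Mpped1* higher and *Shisal1* lower. *Shisal1* was chosen for mention after its value was seen. Over all genes, 0.553% were called higher and 0.663% lower. The median log2 change of the 24 was -0.11.

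Among the secreted proteins, *Nov* (*Ccn3*) encodes a matricellular protein of the CCN family. It lies on chromosome 15 from 54745702 to 54754039, 30031 kb from *Phf21b*. *Ccn3* had 276, 372, and 117 CPM in Phf21bΔ4/Δ4 replicates 2, 3, and 6 and 80.2, 36.0, and 86.0 CPM in Phf21b+/+ replicates 5, 7, and 8. The genotypes did not overlap, but both were spread widely, with the highest Phf21bΔ4/Δ4 mouse at 3.17 times the lowest and the highest Phf21b+/+ mouse at 2.39 times the lowest. The log2 change of 1.87 (standard error 0.50) was the largest of the 9 markers as fitted to all 6 mice, and its FDR was 0.14 by limma, so it was not called. Without Phf21bΔ4/Δ4 replicate 6 it was 2.35 with an FDR of 0.027 by limma.

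*Lefty1* encodes a secreted antagonist of Nodal signalling and lies on chromosome 1 from 180935022 to 180938400. It had the lowest levels of the 9 markers, with 5.86, 4.19, and 15.6 CPM in Phf21bΔ4/Δ4 replicates 2, 3, and 6 and 4.18, 6.54, and 5.48 CPM in Phf21b+/+ replicates 5, 7, and 8. Only Phf21bΔ4/Δ4 replicate 6 stood above the other 5 mice. The log2 change was 0.45, with a 95% interval of -0.68 to 1.59 and an FDR of 0.56 by limma. Without that mouse the log2 change of *Lefty1* was -0.10.

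Among the proteins of the endoplasmic reticulum and Golgi apparatus, *Wfs1* encodes wolframin, a membrane protein of the endoplasmic reticulum and a standard label of CA1 cells. It lies on chromosome 5 from 36966104 to 36989205. *Wfs1* had 37.2, 162, and 210.3 CPM in Phf21bΔ4/Δ4 replicates 2, 3, and 6 and 35.5, 56.2, and 49.9 CPM in Phf21b+/+ replicates 5, 7, and 8. Phf21bΔ4/Δ4 replicates 3 and 6 were far above the Phf21b+/+ mice, and replicate 2 was within their range. The highest Phf21bΔ4/Δ4 mouse was 5.65 times the lowest, and of the 10487 genes whose log2 CPM averaged 3 or more, 0.286% had as wide a log2 range among these 3 mice. The log2 change was 1.22 with a 95% interval of -0.26 to 2.7 (FDR 0.27, limma). Without Phf21bΔ4/Δ4 replicate 2 it was 1.99 with an FDR of 0.096 by limma, and *Wfs1* was then called. Without replicate 6 it was 0.74 (FDR 0.41, limma), and with arrayWeights 0.33 (FDR 0.63, limma).

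*Man1a* encodes a Golgi mannosidase that trims N-linked glycans, and lies on chromosome 10 from 53904785 to 54076609. It had 109, 122, and 170.3 CPM in Phf21bΔ4/Δ4 replicates 2, 3, and 6 and 75.2, 116, and 89.9 CPM in Phf21b+/+ replicates 5, 7, and 8. The genotypes overlapped by a single pair of mice, Phf21bΔ4/Δ4 replicate 2 lying below Phf21b+/+ replicate 7. The log2 change was 0.51 with a 95% interval of 0.0047 to 1.02 (FDR 0.21, limma), and it was 0.32 without Phf21bΔ4/Δ4 replicate 6. *Ndst4* encodes an enzyme that removes acetyl groups from heparan sulfate and adds sulfate to it, and lies on chromosome 3 from 125404076 to 125728899. It had 39.1, 62.7, and 94.5 CPM in Phf21bΔ4/Δ4 replicates 2, 3, and 6 and 62.2, 43.2, and 60.7 CPM in Phf21b+/+ replicates 5, 7, and 8. The Phf21bΔ4/Δ4 mice held both the lowest and the highest level of the 6. The log2 change of *Ndst4* was 0.17 with a 95% interval of -0.59 to 0.93 (FDR 0.76, limma), and it was -0.14 without Phf21bΔ4/Δ4 replicate 6.

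The transcription factor of the set, *Pou3f1*, encodes a POU-domain protein also known as Oct-6 and SCIP, and lies on chromosome 4 from 124656807 to 124660655. *Pou3f1* had 20.9, 27.5, and 46.2 CPM in Phf21bΔ4/Δ4 replicates 2, 3, and 6 and 20.6, 16.7, and 23.1 CPM in Phf21b+/+ replicates 5, 7, and 8. Phf21bΔ4/Δ4 replicates 3 and 6 lay above the Phf21b+/+ mice and replicate 2 among them. Its log2 change was 0.58 with a 95% interval of -0.11 to 1.27 (FDR 0.27, limma). It was 0.26 without Phf21bΔ4/Δ4 replicate 6 and 0.13 with arrayWeights. Exons of *Pou3f1* and *Man1a* overlap those of a gene on the other strand that is not in the expression table (*Gm2164* and *Gm16998*), and the strand setting of the counting is not given in the sources used here.

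The markers did not move as a block within the Phf21bΔ4/Δ4 mice. Replicate 6 was the highest of these 3 mice in 5 markers (*Wfs1*, *Man1a*, *Ndst4*, *Pou3f1*, and *Lefty1*) and the lowest in the other 4 (*Gpr161*, *Fibcd1*, *Mpped1*, and *Ccn3*). Replicate 2 was the lowest in 4 (*Wfs1*, *Man1a*, *Ndst4*, and *Pou3f1*) and the highest in *Gpr161* and *Fibcd1*, and replicate 3 was the highest in *Mpped1* and *Ccn3*. Averaged over the 9 markers, the level was 1.67, 2.08, and 2.35 times the Phf21b+/+ mean in replicates 2, 3, and 6 (geometric means), with 7, 8, and 9 of the 9 markers above that mean. In the Phf21b+/+ mice the same average lay between 0.907 and 1.10, with 6, 3, and 8 of the 9 markers above that mean in replicates 5, 7, and 8. The count of markers above the mean thus overlapped between the genotypes. The log2 range was wider in Phf21bΔ4/Δ4 than in Phf21b+/+ mice in 8 of the 9 markers, all but *Gpr161*, and in 64.5% of those 10487 genes.

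**Figure D3:**
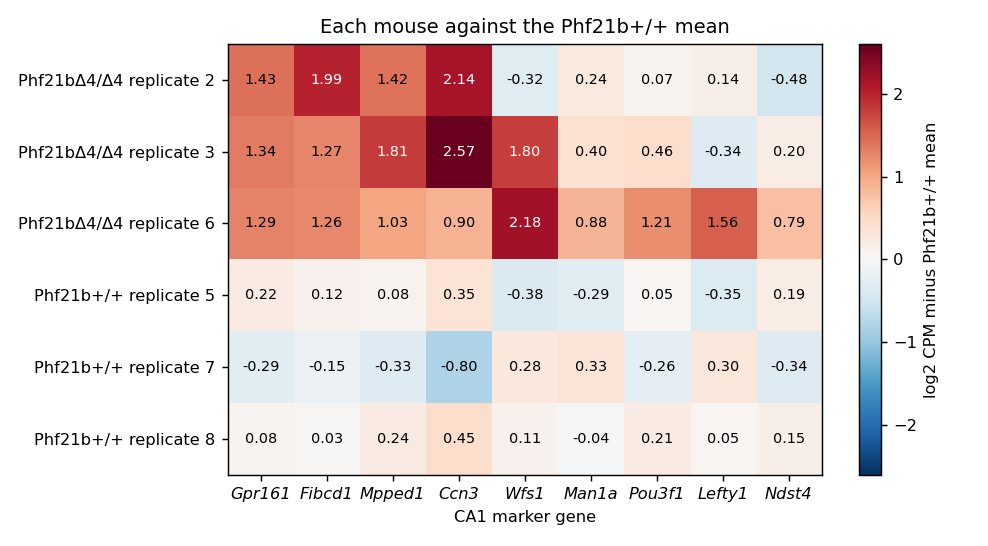
Log2 CPM of each CA1 marker (columns) in each mouse (rows) minus the mean of the 3 Phf21b+/+ mice, in log2 units, with red above and blue below that mean. The first 4 columns are red in all 3 Phf21bΔ4/Δ4 rows (0.90 or more), and the last 5 are reddest in Phf21bΔ4/Δ4 replicate 6 (0.79 to 2.18).

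Levels were compared between markers as CPM per kb of merged exons. In Phf21b+/+ mice the order was *Mpped1* (26.4 ± 5.13, SD, n = 3), *Ccn3* (23.5 ± 9.54), *Fibcd1* (20.3 ± 1.91), *Wfs1* (12.5 ± 2.80), *Man1a* (9.71 ± 2.14), *Gpr161* (7.36 ± 1.3), *Pou3f1* (5.23 ± 0.848), *Ndst4* (4.72 ± 0.902), and *Lefty1* (3.07 ± 0.674). Neighbours in this order overlapped in their ranges over mice, except that the 3 *Fibcd1* levels lay above the 3 *Wfs1* levels. In Phf21bΔ4/Δ4 mice *Ccn3* came first at 89.0 ± 44.9 CPM per kb and *Mpped1* next at 71.5 ± 19.1. *Gpr161* moved ahead of *Man1a* there, at 18.6 ± 0.955 against 13.9 ± 3.34 CPM per kb, and these 2 did not overlap.

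Other genes expressed in CA1 were read from a list of 6 that was written together with the comparison. Of these, 0 were called by limma in either direction, 5 had a positive log2 change, and the median was 1.08. *Spink8*, a CA1-enriched gene of the Kazal protease inhibitor family, had 22.6, 13.5, and 34.4 CPM in Phf21bΔ4/Δ4 replicates 2, 3, and 6 and between 11 and 13.5 CPM in Phf21b+/+ mice (FDR 0.18, limma). *Crym*, which encodes a thyroid hormone–binding protein, had 440, 288, and 160 CPM against 74.7 to 118 CPM and did not overlap between the genotypes (FDR 0.13, limma). *Dcn*, which encodes the proteoglycan decorin, had 152, 101, and 3.0 CPM against 10.4 to 12.8 CPM (FDR 0.47, limma). The mice ranked differently in these genes. *Crym* and *Dcn* were highest in Phf21bΔ4/Δ4 replicate 2 and lowest among the Phf21bΔ4/Δ4 mice in replicate 6, whereas *Spink8* was highest in replicate 6. *Bcl11b*, a transcription factor also known as Ctip2, and *Calb1*, the calcium-binding protein calbindin, had log2 changes of 0.15 and -0.25 (FDR 0.69 and 0.21, limma). *Calb1* lay lower in every Phf21bΔ4/Δ4 mouse, at 120.1 to 148.9 CPM against 149.3 to 168.5 CPM. Of the 6 genes, 2 lay higher and 1 lower in every Phf21bΔ4/Δ4 mouse, against 15.0% and 16.0% of all genes.

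Genes of other cell fields and tissues differed between the mice as well. In bulk tissue, fewer cells of a type, less RNA per cell, and less neighbouring tissue in the dissection cannot be told apart. Of 10 markers of the medial habenula, 9 were called lower in Phf21bΔ4/Δ4 mice, and all 10 lay lower in every Phf21bΔ4/Δ4 mouse. Over all genes, 0.663% were called lower and 16.0% lay lower in every Phf21bΔ4/Δ4 mouse. Their summed level was 47.2 to 91.8 CPM in Phf21bΔ4/Δ4 mice and 277 to 418 CPM in Phf21b+/+ mice, and in 3 of them no Phf21bΔ4/Δ4 mouse had more than 3 reads. *Pou4f1*, a defining transcription factor of that nucleus, had 0.0843, 0.0476, and 0 CPM in Phf21bΔ4/Δ4 replicates 2, 3, and 6 and between 12.1 and 20.6 CPM in Phf21b+/+ mice. Of 9 listed markers of the thalamus (the list names 10), 3 were called lower, and their sum was 31.2 to 125 CPM against 334 to 495 CPM. Choroid plexus markers were spread most widely among the Phf21b+/+ mice. The sum of 8 of them was 15723 CPM in Phf21b+/+ replicate 7, 977 CPM in replicate 8, and 28.7 CPM in replicate 5, against 22.9 to 80.7 CPM in Phf21bΔ4/Δ4 mice, and 1 was called lower. Without Phf21b+/+ replicate 7 the log2 change was 1.21 for *Gpr161*, which was called, and 1.43 for *Fibcd1* and 1.26 for *Mpped1*, which were not. In that fit 2 of the 14477 genes were called higher. *Fibcd1* and *Mpped1* were not called without Phf21b+/+ replicate 5 either (FDR 0.11 and 0.12, limma), the Phf21b+/+ mouse with the lowest choroid plexus sum. The part of the differences in habenular, thalamic, and choroid plexus genes in the levels of the CA1 markers was not tested.

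Within the hippocampus, dentate markers had log2 changes of the opposite sign to CA1 markers. Of 10 dentate granule cell markers, 1 was called lower (0.663% of all genes) and 8 lay lower in every Phf21bΔ4/Δ4 mouse (16.0% of all genes). The median log2 change of the 10 was -1.46. Their summed level was 337, 303, and 829 CPM in Phf21bΔ4/Δ4 replicates 2, 3, and 6 and 937 to 1048 CPM in Phf21b+/+ mice. *Prox1*, the transcription factor that specifies granule cells, had 50.4, 44.4, and 109.8 CPM against 115 to 149 CPM (FDR 0.15, limma). The summed level of the 9 CA1 markers was 1309, 1504, and 1238 CPM in Phf21bΔ4/Δ4 replicates 2, 3, and 6 and 492 to 599 CPM in Phf21b+/+ mice. Replicate 6 was the highest of the Phf21bΔ4/Δ4 mice in dentate markers and the lowest in this sum, to which abundant markers add most. With the 9 markers weighted equally, as above, it was the highest of the 3. The 5 CA2 markers (median log2 change -0.80) and the 6 CA3 markers (median -0.25) had no called gene, but 3 CA2 markers (*Amigo2*, *Cacng5*, and *Pcp4*, the last 2 named after their values were seen) lay lower in every Phf21bΔ4/Δ4 mouse, with log2 changes of -0.66, -1.40, and -1.05. *Rgs14*, a CA2 regulator of G protein signalling and the 1 CA2 marker with a positive log2 change (0.37), had 97.0, 66.4, and 192 CPM against 75.5 to 88.7 CPM, and *Bok*, a CA3-enriched gene of the Bcl-2 family, had 67.1, 26.4, and 99.0 CPM against 92.9 to 120 CPM (FDR 0.52 and 0.27, limma). Both were lowest in Phf21bΔ4/Δ4 replicate 3 and highest among the Phf21bΔ4/Δ4 mice in replicate 6.

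Several CA1 markers are also expressed in cortex. The 8 markers of cortical layers had no called gene and a median log2 change of -0.11, and their sum was 321, 581, and 295 CPM in Phf21bΔ4/Δ4 replicates 2, 3, and 6 and 300 to 421 CPM in Phf21b+/+ mice. Of the 8, 3 had a positive and 5 a negative log2 change. The lowest was -1.58 for *Foxp2*, also named after its values were seen (FDR 0.18, limma). Of these genes 1 lay higher and 0 lower in every Phf21bΔ4/Δ4 mouse, as did 15.0% and 16.0% of all genes. *Cux2*, an upper-layer transcription factor, had 74.5 CPM in Phf21bΔ4/Δ4 replicate 3 and between 21.4 and 30.2 CPM in the other 5 mice. *Fezf2*, a deep-layer transcription factor named after its values were seen, lay higher in every Phf21bΔ4/Δ4 mouse, at 30.4, 44.2, and 19.7 CPM in replicates 2, 3, and 6 against 8.86 to 17.0 CPM (log2 change 1.13, FDR 0.16, limma). Phf21bΔ4/Δ4 replicate 3 was also the highest of the 6 mice in *Mpped1* and *Ccn3*, and the part of cortical RNA in these levels was not tested. Without Phf21bΔ4/Δ4 replicate 3 the log2 change was 1.23 for *Mpped1*, 1.63 for *Fibcd1*, and 1.36 for *Gpr161*, of which *Gpr161* alone was called. The FDR of *Fibcd1* was then 0.101 by limma. In that fit 11 of the 14477 genes were called higher, against 80 with all 6 mice.

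The CA1 markers were also set against genes of neurons within each mouse. The summed level of 8 genes expressed by excitatory neurons of all hippocampal fields was 3871 to 5883 CPM in Phf21bΔ4/Δ4 mice and 3649 to 4730 CPM in Phf21b+/+ mice, with 0 called. Relative to it, the 9 CA1 markers together came to 25.7%, 38.8%, and 21.0% in Phf21bΔ4/Δ4 replicates 2, 3, and 6 and to 12.5%, 13.5%, and 12.7% in Phf21b+/+ replicates 5, 7, and 8. The summed share was higher in every Phf21bΔ4/Δ4 mouse, but this did not hold for each marker. In Phf21bΔ4/Δ4 replicate 2 the shares of *Wfs1* (0.731%), *Pou3f1* (0.410%), and *Ndst4* (0.767%) lay below those of all 3 Phf21b+/+ mice, the lowest of which were 0.790%, 0.457%, and 1.18%. The 8 genes of neurons in general summed to 7217 to 8763 CPM against 5383 to 6896 CPM, with a positive log2 change in 8 of 8, 0 called, and a median log2 change of 0.43. With each mouse centred on the excitatory list or on the general neuronal list, alternatives that were added after the data were seen, *Gpr161*, *Fibcd1*, *Mpped1*, and *Ccn3* were called, and the log2 change of *Gpr161* was 1.23 and 0.93. These centrings moved the median over all genes to -0.14 and -0.44. *Ndst4* changed direction under the general list, and the other 8 markers kept a positive change under both.

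The remaining lists covered other cells of the tissue. All 7 interneuron markers lay higher in every Phf21bΔ4/Δ4 mouse, with a median log2 change of 0.68, and 1, *Gad2*, was called. Over all genes, 15.0% lay higher in every Phf21bΔ4/Δ4 mouse, 0.553% were called higher, and 0.663% were called lower. Astrocyte markers had a median of 0.09, and *Aqp4*, the astrocyte water channel, was called lower, at 239.6 ± 25.7 against 382 ± 17.2 CPM (SD, n = 3 each; FDR 0.067, limma). Markers of oligodendrocytes, microglia, and endothelial cells had medians of -0.18, 0.06, and 0.40 with 0 called.

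**Figure D4:**
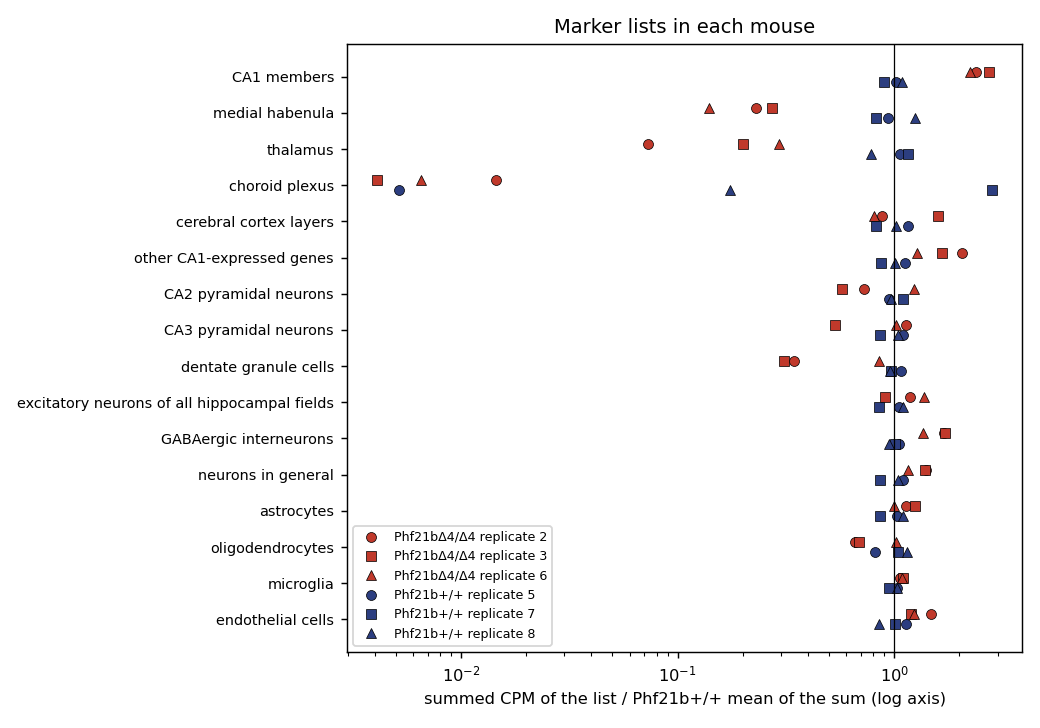
Summed CPM of each marker list in each mouse, divided by the Phf21b+/+ mean of that sum (log axis), with Phf21bΔ4/Δ4 mice in red and Phf21b+/+ mice in blue. The CA1 markers lie to the right of all Phf21b+/+ mice in the 3 Phf21bΔ4/Δ4 mice. The same holds for other CA1-expressed genes, interneurons, neurons in general, microglia, and endothelial cells. Medial habenula, thalamus, and dentate markers lie to the left, and choroid plexus markers spread widely among the Phf21b+/+ mice.

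The genes nearest to the mean profile of the 9 CA1 markers were sought among 10479 other genes that averaged a log2 CPM of 3 or more. The measure was the root-mean-square distance, over the 6 mice, between a gene's centred log2 CPM and the mean centred profile of the markers. The 5 nearest genes were *Sstr4* (0.12 log2 units), *Cacna2d3* (0.16), *Sorcs3* (0.16), *Tmem200a* (0.17), and *Crhbp* (0.18). *Sstr4*, a somatostatin receptor, had 22.8, 23.3, and 28.6 CPM in Phf21bΔ4/Δ4 replicates 2, 3, and 6 and 13.9, 11.4, and 15.5 CPM in Phf21b+/+ replicates 5, 7, and 8. *Sorcs3*, a sorting receptor of the VPS10 family, had 79.4, 82.9, and 89.1 CPM against 46.4, 43.8, and 40.8 CPM in the same order. *Tmem200a*, a transmembrane protein gene, had 56.5, 51.6, and 62.6 CPM against 31.8, 26.2, and 36.8 CPM. *Cacna2d3*, an auxiliary calcium channel subunit, and *Crhbp*, which binds corticotropin-releasing hormone, had log2 changes of 0.84 and 0.87. These 5 genes were picked for the smallest distance, so the markers cannot be compared with them on it. The distance of the markers from their own mean profile ran from 0.28 log2 units for *Gpr161* to 0.81 for *Ccn3*. Among the 10479 genes these distances would rank 81 and 9896, and that of *Wfs1* 9059, so single markers could lie far from the mean profile.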

How the data were processed

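Hippocampal RNA of 6 mice was sequenced as 1 library per mouse, and mice were grouped by the genotype in their sample labels. The log2 CPM values were deposited by the authors, who trimmed reads with Trimmomatic 0.39, mapped them to GRCm38 with STAR 2.7.3a, counted them over GENCODE genes with featureCounts of Subread 1.6.4, dropped genes under 1 CPM in all but at most 1 sample, and scaled to effective library size. CPM was computed as 2 to the power of the value minus that of the lowest value (0 reads), after which 100.0% of values were whole reads within 0.1. Depth and intervals cover counting error and these mice only.

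Genotypes were compared, 2-sided, with limma 3.58.1 (lmFit, eBayes with trend) in R 4.3.3 over all 14477 genes, since the deposited values are log2 CPM. The paper's methods used a count test, and voom on the recovered reads stood as an alternative. The fit was tested on simulated data. The members and the 15 lists were chosen with earlier results of these data known. Named are all members, *Phf21b*, the CA1-expressed list (1 gene of it is not reported here), the first 2 genes of each other list where a result turns on them, and the 5 nearest genes. Exon lengths and positions are from GENCODE M21 and windows from RefSeq (GRCm38.p6). Alternatives were a common prior variance, arrayWeights, a filter at a mean log2 CPM of 1, log2(CPM + 1), centring, voom on the reads, and leaving out each mouse. Python 3.11.15 made tables and figures.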

Additional observations from a re-analysis of the deposited data

How the results depend on the processing

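Of the 14477 genes, 176 were called by limma, and 3 of the 9 CA1 markers. The numbers were 75 genes and 1 marker with a common prior variance, 3549 and 5 with arrayWeights, and 101 genes with the filter at a mean log2 CPM of 1. Of the 176, 80 were higher and 96 lower, against 17 and 371 of 388 when centred on the excitatory list and 92 and 5454 of 5546 when centred on general neuronal genes, 2 scalings chosen after seeing the data. Leaving out single mice, between 9 and 2830 genes and between 0 and 4 markers were called, the extremes being without Phf21b+/+ replicate 8 and without Phf21bΔ4/Δ4 replicate 6. The log2 change of *Ndst4* turned to -0.32 with arrayWeights, to -0.25 with centring on general neuronal genes, and ranged from -0.14 to 0.49 with a mouse left out. That of *Lefty1* ranged from -0.10 to 0.85. The other 7 markers kept their direction in all 14 alternatives. The cause of these shifts was not tested. No paired analysis was possible because the genotypes share no replicate numbers. The lowest read number of a CA1 marker in any mouse was 88, and each genotype had 3 mice.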
